A study of Chlorocebus aethiops with 24 samples.

Results

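Mitochondrial ribosomal proteins are encoded in the nucleus, made on cytosolic ribosomes and imported into mitochondria, where they assemble with ribosomal RNA of the mitochondrial genome into a large and a small subunit. The finished mitoribosome translates the messages of mitochondrial DNA, which code for core subunits of the respiratory chain and ATP synthase. Neurons draw heavily on oxidative phosphorylation, and several of these ribosomal proteins are mutated in inherited mitochondrial disease. The genes described here are the rows of the array table whose annotation gives 1 symbol that starts with MRPL or MRPS and a digit. They were 58 of 11512 rows and stood for 54 symbols. Large subunit proteins (MRPL) had 35 rows for 34 symbols, and small subunit proteins (MRPS) had 23 rows for 20 symbols. MRPL44, MRPS14, MRPS16 and MRPS26 each had 2 rows, which are told apart below as the brighter and the dimmer row by their mean signal. A further row that carried an MRPS symbol beside a second symbol was left out by this rule.

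The animals were 22 male vervet monkeys, and messenger RNA from the left side of the hippocampus was hybridized to 1 array each, on a chip made for the rhesus macaque. The labels call the animals Chlorocebus aethiops, and the methods call them Chlorocebus sabaeus. Dams with a preference for alcohol drank an ethanol solution late in gestation, and their offspring form the fetal alcohol spectrum disorder (FASD) group, while dams of the control group received sucrose matched for calories. Per the methods, the control dams had this preference as well, and a dam could receive ethanol in 1 pregnancy and sucrose in another. Offspring of the same dam may thus be in both groups, and which animals shared a dam was not analysed here. There were 6 controls and 5 FASD animals at 5 months of age, and 6 controls and 5 FASD animals at 2 years, all from separate animals. The labels and methods name no allele or later treatment for any group, and the exposure was voluntary drinking, so the dose of each dam was not fixed. Where values of single FASD animals are given, they are in the order of the animals' numbers, which are 2 to 6 at 5 months and 1, 2, 3, 4 and 6 at 2 years. Values are log2 expression intensities, so a difference of 1 is a doubling. A level of 1 probe set cannot be set against that of another as an amount of RNA, so expression is compared only between animals on the same row.

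Control animal 6 at 5 months has labels that conflict, since its source name says 2 years and its other labels say 5 months. It was placed at 5 months. FASD animal 2 at 5 months had the lowest weight when arrays were weighted by their fit, at 0.273 against 0.379 to 2.54 for the others. Array means lay between 7.90 and 7.98 in FASD animals at 5 months and between 7.95 and 7.996 in controls of that age. Neuron markers (ENO2, STMN2 and SYT1) had a mean log2 value of 11.3 to 11.8 in every animal and the pyramidal neuron markers NEUROD6 and NRGN one of 9.94 to 10.6, and no gene of the blood cell list was measured. In whole tissue, fewer cells of a type and less RNA per cell cannot be told apart.

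Alcohol, age and their interaction were compared with limma over all 11512 rows. For alcohol, the log2 mean of controls was taken from that of FASD animals at each age and the 2 results were averaged. For age, the mean at 5 months was taken from that at 2 years in each exposure and averaged likewise. The interaction is the alcohol difference at 2 years minus that at 5 months. The Benjamini-Hochberg adjustment covered all rows.

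Most mitochondrial ribosomal protein messages had low spread between animals and small group differences. The SD between animals within groups had a median of 0.137 over the 58 rows, against 0.158 over all rows, and 18 of the 58 lay above the median of all rows. The members were also bright rows, since the mean signal of 47 of the 58 lay above the median of all rows (medians of 8.83 and 8.01). Whether their low spread goes with signal was not tested. The tightest rows were MRPL45 at 0.0721, MRPL46 at 0.0778 and MRPS23 at 0.0824. The widest were the brighter MRPS26 row at 0.603, MRPL42 at 0.547, the brighter MRPL44 row at 0.320 and MRPS30 at 0.266. These rows were picked out after their spread was seen. For alcohol, the 95% interval lay within 0.25 of 0 for 50 of 58 rows, against 70.1% of all rows. For age it did so for 52 of 58, against 70.3% of all rows. These shares depend on the spread as well as on the differences. With the sign left out, the median alcohol difference was 0.051 in members and 0.057 in all rows. For age these medians were 0.036 and 0.054.

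**Figure D1:**
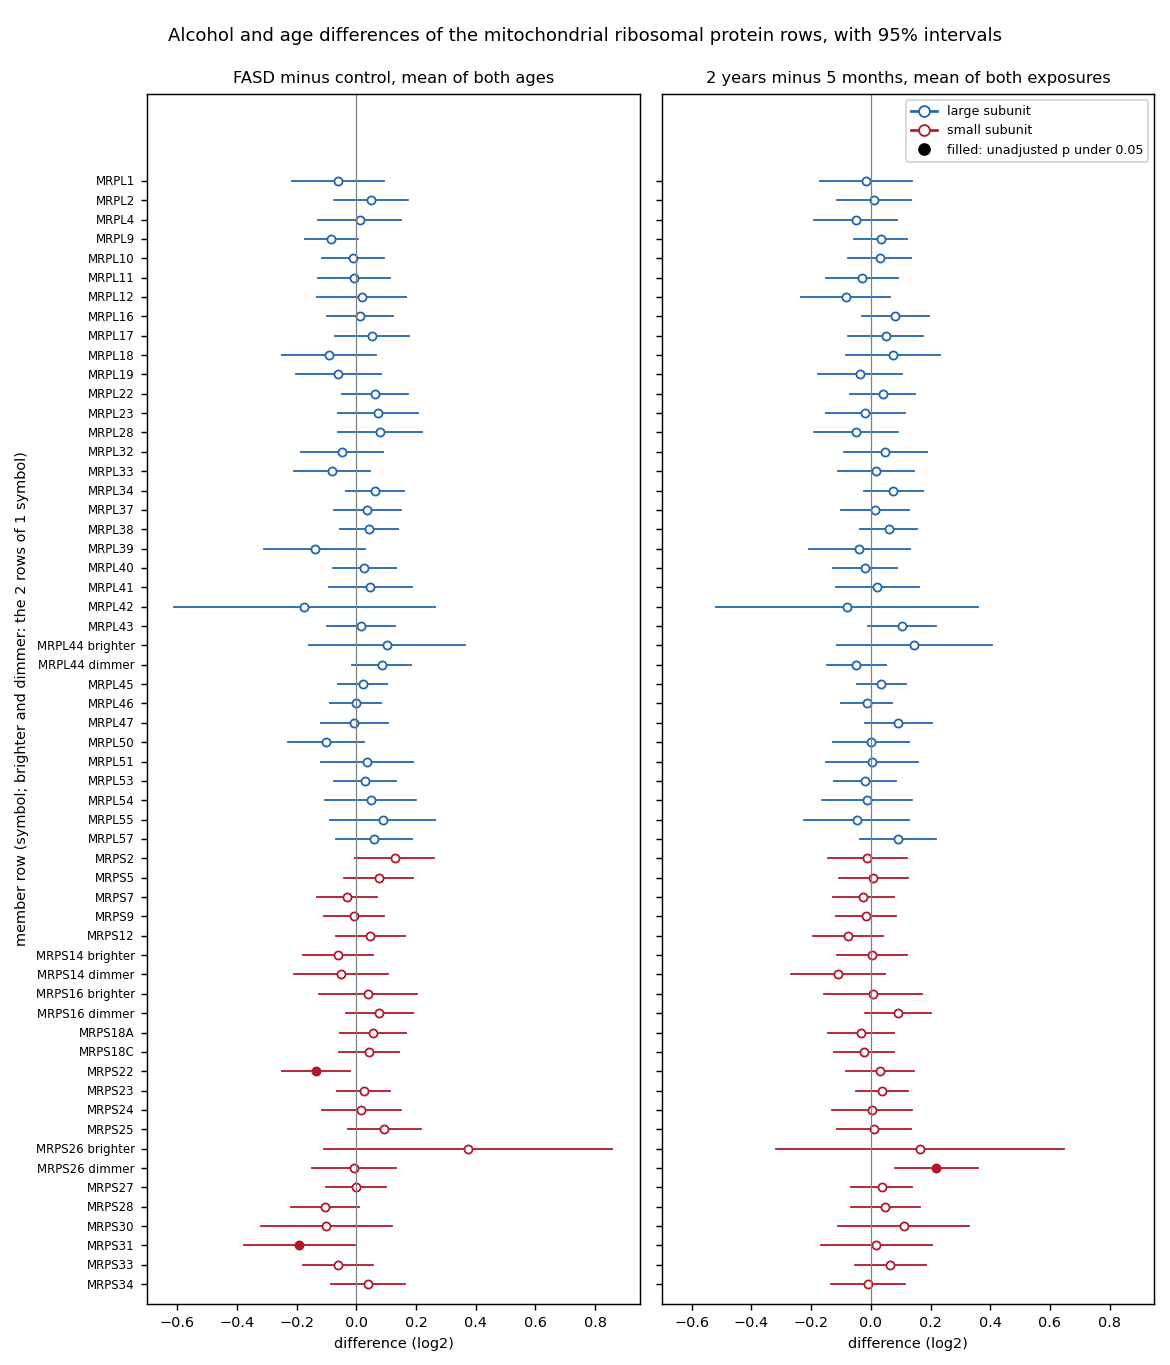
Difference in log2 expression of each of the 58 rows for alcohol (left, FASD minus control) and age (right, 2 years minus 5 months), with 95% intervals from limma, large subunit in blue and small subunit in red. Filled points have an unadjusted p under 0.05, which are MRPS22 and MRPS31 for alcohol and the dimmer MRPS26 row for age, and the widest intervals are those of MRPL42 and the brighter MRPS26 row.

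The question for alcohol was whether exposure before birth left a difference in these messages. At an unadjusted p under 0.05, 2 of 58 rows (3.45%) passed, against 8.44% of all rows. Both were small subunit genes and lower in FASD, where 6.01% of all rows were called lower. No member had an adjusted p under 0.05 with limma or with the two-way analysis of variance that the methods name. At an unadjusted p under 0.05 the latter called 938 of all 11512 rows and 2 members. Those 2 were MRPS22 and MRPL9, so MRPS31 was called by limma alone (p of 0.0606 in the analysis of variance) and MRPL9 by the analysis of variance alone. The limma fit called 0 of 11512 rows at that adjusted threshold (0%), and the lowest adjusted p of a member was 0.579. The alcohol difference was negative in 24 members and positive in 34, with a median of 0.019 against -0.0069 over all rows. The share of calls among these genes was thus below that of the whole table.

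MRPS22, a small subunit protein with no bacterial counterpart, had the lowest p for alcohol. At 5 months its log2 value was 9.18, 9.41 and 9.46 in the lowest, median and highest control, and 9.06, 9.13, 9.40, 9.37 and 9.13 in the FASD animals. At 2 years the controls had 9.32, 9.36 and 9.47, and the FASD animals 9.11, 9.21, 9.52, 9.34 and 9.19. At each age 3 FASD animals lay below every control, yet the groups overlapped. The controls were tight at 2 years (9.38 ± 0.06, SD, n = 6), while FASD animals spread from the lowest to the highest value of that age (9.27 ± 0.16, SD, n = 5). The difference was -0.13 (SE 0.05, limma, unadjusted p = 0.0221, adjusted p = 0.579), and an exact permutation of the animals within each age gave a two-sided p of 0.0183. In all, 36 exact permutation tests were run, mostly on members named for a low limma p, and none passed after Benjamini-Hochberg adjustment over the 36, the lowest adjusted exact p being 0.0779 and that of MRPS22 0.164. Exact p given below are unadjusted. The MRPS22 difference was -0.16 at 5 months and -0.11 at 2 years. The call over both ages was lost when FASD animal 1 at 2 years was left out (-0.11, unadjusted limma p of 0.0507) and with array weights (-0.11, unadjusted limma p of 0.0543).

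MRPS31, another small subunit protein without a bacterial counterpart, was the other row lower in FASD. At 2 years the controls had a log2 value of 6.21, 6.74 and 6.95 at their lowest, median and highest, and the FASD animals 6.43, 6.11, 6.31, 6.52 and 6.38. At that age all FASD animals lay below 5 of the 6 controls, and the remaining control, animal 2, lay among them. At 5 months the controls had 6.26, 6.43 and 6.97 and the FASD animals 6.67, 6.54, 6.39, 6.25 and 6.49, and the ranges overlapped throughout. The difference over both ages was -0.19 (SE 0.09, limma, unadjusted p = 0.0452, adjusted p = 0.590), with an exact permutation p of 0.0666 in a two-sided test. It was -0.33 at 2 years (SE 0.13, unadjusted p = 0.0178) and -0.06 at 5 months, and the interaction of -0.27 had an unadjusted p of 0.149. The call over both ages was lost in 12 of the 22 fits that each left out 1 animal, with p up to 0.0922 without FASD animal 2 at 2 years, and under 4 other settings (the analysis of variance, centring, quantile normalization and the replicate block). The call at 2 years was lost only without that same animal among these fits (-0.27, unadjusted limma p of 0.0589).

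The other members named for alcohol did not pass in the limma fit, though each did under some other setting. MRPS2, the counterpart of a bacterial small subunit protein, was higher by 0.13 (SE 0.06, unadjusted limma p of 0.0566, exact permutation p = 0.0644). It passed after centring, quantile normalization or array weights, with unadjusted limma p of 0.0266, 0.0231 and 0.0245. At 2 years its FASD animals had log2 values of 8.83, 8.97, 8.86, 8.70 and 8.75 against 8.39, 8.55 and 8.91 in the lowest, median and highest control, a difference of 0.21 (SE 0.09, limma, unadjusted p = 0.0277, adjusted p = 0.793). There 4 controls lay below every FASD animal and the other 2 lay among them. This call at 2 years was lost in 5 of 22 fits, without control animal 1, 4 or 6 or FASD animal 2 or 3 of that age, with differences between 0.17 and 0.20 and unadjusted limma p between 0.0512 and 0.0801. At 5 months the MRPS2 difference was 0.04. MRPL9, a large subunit protein, differed by -0.08 (SE 0.04, exact permutation p = 0.0311), and MRPS28, of the small subunit, by -0.11 (SE 0.06, exact permutation p = 0.0575). Their unadjusted limma p were 0.0659 and 0.0703, and both had an adjusted p of 0.620. MRPL9 passed in the analysis of variance that the methods name (unadjusted p of 0.0347), and MRPS28 with array weights (unadjusted limma p of 0.0103).

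**Figure D2:**
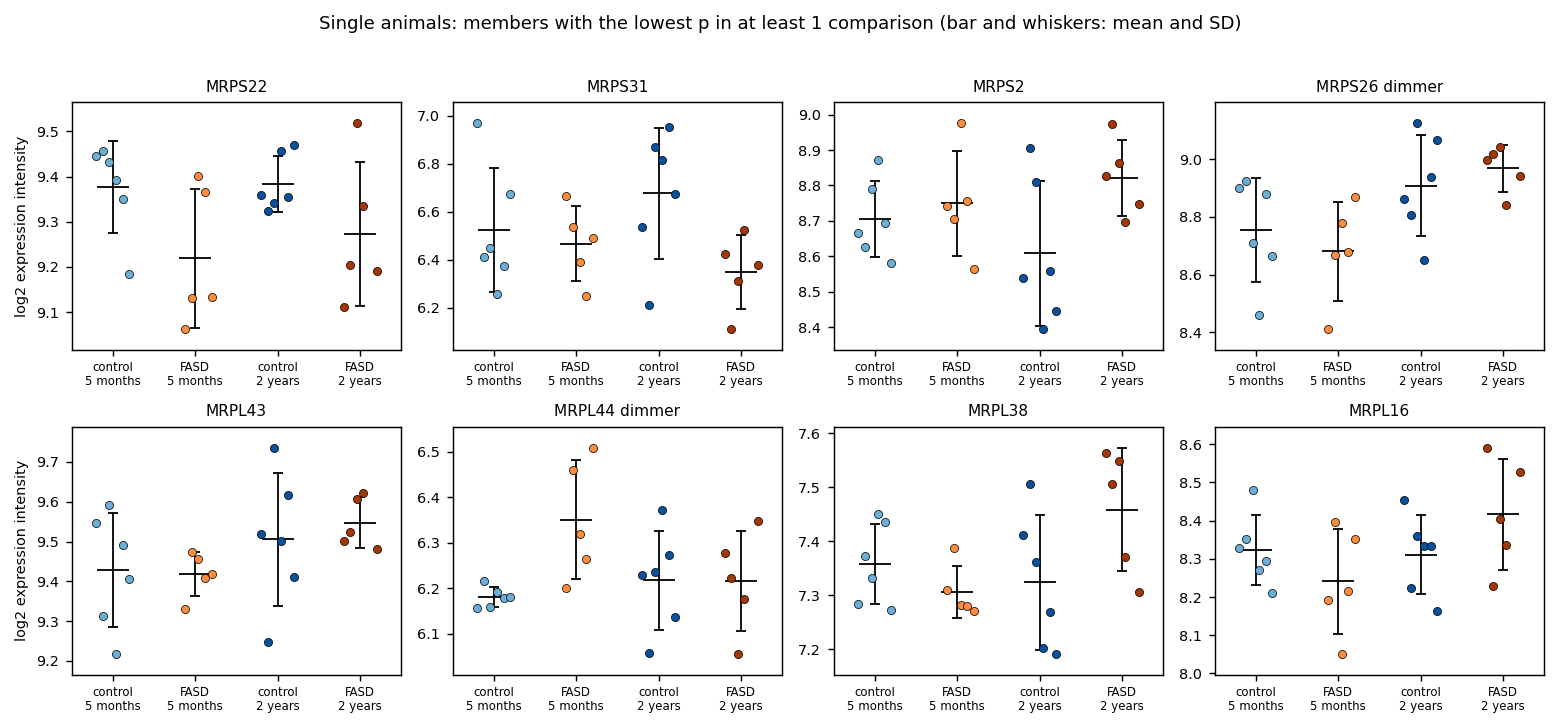
Log2 expression intensity of 8 rows in each animal (points), with the group mean and SD (bar and whiskers), for controls and FASD animals at 5 months and 2 years. The 2-year FASD animals sit low for MRPS31 (6.11 to 6.52), and the 5-month controls of the dimmer MRPL44 row lie close together (6.16 to 6.22).

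Within each age, few members differed. At 5 months 1 of 58 rows passed an unadjusted p under 0.05, against 4.83% of all rows, and at 2 years 2 of 58 did, against 6.05%. The row at 5 months was the dimmer one of MRPL44, a large subunit protein related to ribonuclease III. Its controls had log2 values of 6.16, 6.18 and 6.22 at their lowest, median and highest, and its FASD animals 6.20, 6.46, 6.32, 6.26 and 6.51. All FASD animals but animal 2 lay above all controls. The difference was 0.17 (SE 0.07, limma, unadjusted p = 0.0189, adjusted p = 0.932), and the exact permutation p was 0.00433, where 0.00216 is the smallest possible with these groups. It was lost without FASD animal 3 (0.14, unadjusted limma p of 0.0589) or 6 (0.13, p of 0.0722). The brighter MRPL44 row differed by 0.31 at 5 months (limma, adjusted p = 0.932), and at 2 years the dimmer row differed by less than 0.01 and the brighter one by -0.11. Control animal 6, whose labels conflict, was also left out. Then 2 members passed at 5 months (the dimmer MRPL44 row and MRPS22), and 1 member (MRPS22) passed for alcohol over both ages. Calls over all rows rose in both comparisons without this animal, and the share of members called stayed below that of all rows. No member had groups that did not overlap at 5 months or at 2 years, against 0.443% and 0.313% of all rows.

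The animals of the 2 ages were different ones, so the signs at 5 months and 2 years came from separate measurements. The alcohol difference had the same sign at both ages in 34 of 58 rows (58.6%), against 57.5% of all rows. It was lower at both ages in 14 rows and higher at both in 20, which is 24.1% and 34.5% of the members against 32.3% and 25.2% of all rows.

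The age comparison asked which messages differed between the hippocampus of infants (5 months) and of juveniles (2 years). Here 1 of 58 rows (1.72%) passed an unadjusted p under 0.05, against 9.57% of all rows. It was higher at 2 years, where 4.68% of all rows were called higher. No member passed at an adjusted p under 0.05 with limma or the analysis of variance, and limma called 16 rows of the whole table (0.139%). At an unadjusted p under 0.05 the analysis of variance called 1 member and 1078 of the 11512 rows. The age difference was negative in 23 members and positive in 35, with a median of 0.0086 against 0.0028 over all rows. The same animals differed in other messages. Of 4 measured immature neuron markers (DCX, SOX4, SOX11 and TUBB3), 3 were lower at 2 years at an unadjusted p under 0.05. The mean of that list lay between 9.53 and 9.83 in all animals at 5 months and between 8.997 and 9.89 at 2 years. Its part in the age differences was not tested.

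The row that passed was the dimmer row of MRPS26, a small subunit protein found in mitochondria only. Its log2 value at 5 months was 8.46, 8.79 and 8.92 in the lowest, median and highest control and 8.41, 8.67, 8.78, 8.68 and 8.87 in the FASD animals. At 2 years it was 8.65, 8.90 and 9.13 in controls and 8.999, 9.02, 9.04, 8.84 and 8.94 in FASD animals. In FASD animals 4 of the 5 values at 2 years lay above all values at 5 months, and in controls the ages overlapped. The difference was 0.22 (SE 0.07, limma, unadjusted p = 0.00354, adjusted p = 0.245), and the exact permutation of the animals within each exposure gave a two-sided p of 0.00397. All 22 fits that left out 1 animal kept an unadjusted p under 0.05, the highest being 0.00884. It was 0.29 in FASD animals and 0.15 in controls, and the interaction of 0.14 had an unadjusted p of 0.325. The brighter row of the same gene differed by 0.16 with age (SE 0.23, exact permutation p = 0.584).

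The next members for age did not pass. MRPL43, of the large subunit, was higher at 2 years by 0.10 (SE 0.06, unadjusted limma p of 0.0735, exact permutation p = 0.0469). It was the only member whose groups did not overlap in any of the 4 comparisons within an age or an exposure. In FASD animals its log2 values were 9.33, 9.47, 9.46, 9.41 and 9.42 at 5 months and 9.50, 9.52, 9.61, 9.62 and 9.48 at 2 years, which makes 1 of 58 rows against 1.31% of all rows. In controls 0.434% of all rows and no member had ages that did not overlap. MRPS16 (dimmer row), MRPL47 and MRPL34, all counterparts of bacterial ribosomal proteins, differed by 0.09, 0.09 and 0.08 with unadjusted p of 0.103, 0.106 and 0.125.

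In controls, 2 of 58 rows passed for age, against 5.55% of all rows. The dimmer row of MRPS14, the counterpart of a bacterial small subunit protein, was lower at 2 years by 0.23 on average (log2 difference -0.23, SE 0.10, unadjusted limma p of 0.0337, exact permutation p = 0.0606), with 9.24, 9.47 and 9.80 in the lowest, median and highest control at 5 months and 9.03, 9.25 and 9.45 at 2 years. The brighter MRPL44 row was higher by 0.35 (SE 0.17, unadjusted limma p of 0.0482, exact permutation p = 0.0606), with 7.02, 7.71 and 7.86 at 5 months and 7.54, 7.98 and 8.48 at 2 years. Both pairs of ranges overlapped. The MRPS14 call was lost in 5 of 22 fits with 1 animal left out, with p up to 0.108 without control animal 4 at 5 months, and the MRPL44 call in 12 of 22, with p up to 0.157 without the same animal. The MRPS14 call was also lost after centring (unadjusted limma p of 0.0522), and the MRPL44 call in the analysis of variance and with array weights (unadjusted p of 0.0707 and 0.0747). In FASD animals 3 of 58 rows passed, against 6.99%, all higher at 2 years. Besides the dimmer MRPS26 row these were MRPL38, of the large subunit (0.15, SE 0.07, exact permutation p = 0.0397), and MRPL16, which in bacteria lies near the peptidyl transferase center (0.18, SE 0.08, exact permutation p = 0.0873). Their unadjusted limma p were 0.0371 and 0.0372. MRPL38 had log2 values of 7.31, 7.39, 7.28, 7.28 and 7.27 at 5 months and 7.56, 7.51, 7.55, 7.37 and 7.31 at 2 years in FASD animals, so 3 of the older animals lay above all of the younger ones. MRPL16 had 8.19, 8.40, 8.05, 8.22 and 8.35 at 5 months and 8.59, 8.23, 8.40, 8.34 and 8.53 at 2 years. The MRPL38 call was lost in 6 of 22 fits and the MRPL16 call in 5 of 22, with p up to 0.0972 without FASD animal 1 at 2 years and 0.126 without FASD animal 4 at 5 months. The MRPL16 call was also lost after centring, with quantile normalization and with the replicate block, at unadjusted limma p of 0.0668, 0.0734 and 0.0651. The age difference had the same sign in controls and FASD animals in 32 of 58 rows (55.2%), against 57.1% of all rows.

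For the interaction, no member passed an unadjusted p under 0.05 with limma, against 3% of all rows. The analysis of variance called 2 members (MRPL38 and MRPL46) and 367 of the 11512 rows. At an adjusted p under 0.05 both tools called no member, and limma called 0% of all rows. The lowest unadjusted p was that of MRPL38, at 0.0576. Its alcohol difference was -0.05 at 5 months and 0.13 at 2 years, an interaction of 0.19 (SE 0.09, 95% interval -0.01 to 0.38). MRPL46 followed at 0.15 (unadjusted limma p of 0.0783) and the dimmer MRPL44 row at -0.17 (p of 0.0846). The interaction was measured less closely than the main differences, with intervals within 0.25 of 0 for 11 of 58 members (19.0%), against 11.1% of all rows.

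The 2 rows of 1 symbol lay further apart in some comparisons than in others. The brighter MRPS26 row had log2 values of 7.36, 9.35 and 10.11 in the lowest, median and highest control at 5 months and 9.06, 9.94 and 10.10 at 2 years. Its FASD animals had 9.60, 10.04, 10.06, 9.99 and 9.90 at 5 months and 10.03, 9.45, 9.36, 10.05 and 10.02 at 2 years. The value of 7.36 was that of control animal 6, whose labels conflict, and on the dimmer row the same animal had 8.66, inside the range of its group. The alcohol difference at 5 months was 0.67 on the brighter row (SE 0.33, unadjusted limma p of 0.0531, exact permutation p = 0.108) and 0.30 (limma p of 0.175) without that animal. Over both ages the alcohol difference was 0.37 on the brighter row (SE 0.23) and -0.01 on the dimmer one (SE 0.07), so the 2 rows gave intervals of -0.11 to 0.86 and -0.15 to 0.13. Without that animal the brighter row differed by 0.19 for alcohol (SE 0.15) and by -0.02 for age (SE 0.15).

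For MRPL44, the age difference was 0.15 on the brighter row and -0.05 on the dimmer row, neither past the threshold. For MRPS14 it was 0.0048 on the brighter and -0.11 on the dimmer row (exact permutation p = 0.932 and 0.195). For MRPS16 it was 0.0067 and 0.09 (exact permutation p = 0.946 and 0.0934), and the alcohol difference was 0.04 and 0.08. The alcohol difference over both ages was 0.10 and 0.08 for MRPL44 and -0.06 and -0.05 for MRPS14, with the brighter row first. The difference between rows of a symbol was not tested. Of the 58 probe sets, 10 carry the suffix s_at, which on this kind of array marks a set that can match more than 1 transcript. None of them is a row of MRPL44, MRPS14, MRPS16 or MRPS26, while MRPL43 and MRPL47, named above for age, are among them.

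**Figure D3:**
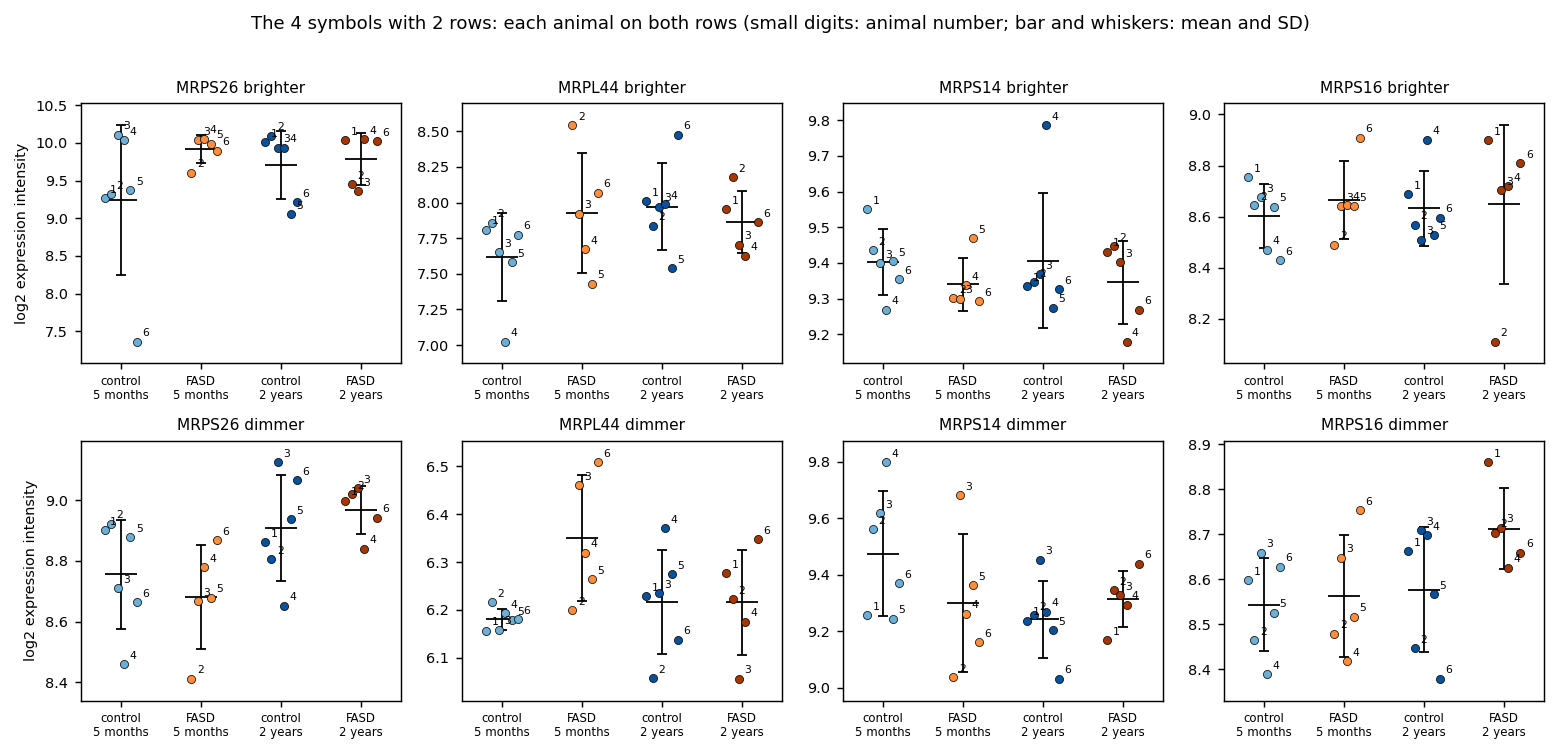
Log2 expression intensity of each animal on the brighter row (top) and the dimmer row (bottom) of MRPS26, MRPL44, MRPS14 and MRPS16, with the group mean and SD as bar and whiskers and the animal's number beside each point. Control animal 6 at 5 months stands at 7.36 on the brighter MRPS26 row and at 8.66 on the dimmer one.

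MRPL42, of the large subunit, also spread widely, and was chosen after its values were seen. Its log2 value was 5.78, 6.84 and 7.79 in the lowest, median and highest control at 5 months and 5.85, 6.98 and 7.33 at 2 years. FASD animals had 7.53, 6.48, 6.04, 6.34 and 7.08 at 5 months and 6.46, 6.22, 6.78, 6.51 and 6.83 at 2 years. Animals of the same group were up to a log2 difference of 2 apart, and the alcohol difference of -0.17 (SE 0.21) was smaller than that spread.

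The members were also averaged in each animal, as deviations from each row's mean over the 22 animals. At 5 months the mean over the 58 rows was -0.010 ± 0.064 for controls (SD, n = 6) and -0.007 ± 0.031 for the FASD group (SD, n = 5). At 2 years it was 0.003 ± 0.073 for controls (SD, n = 6) and 0.015 ± 0.046 for the FASD group (SD, n = 5). The group means lay within 0.025 of each other, less than the SD within any group. Single animals reached from -0.111 in control animal 6 to 0.103 in control animal 3, both at 2 years. Large subunit rows averaged between -0.134 and 0.103 and small subunit rows between -0.130 and 0.104 in single animals. In FASD animal 2 at 5 months, which had the lowest array weight, the large subunit rows averaged 0.102 and the small subunit rows -0.043.

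**Figure D4:**
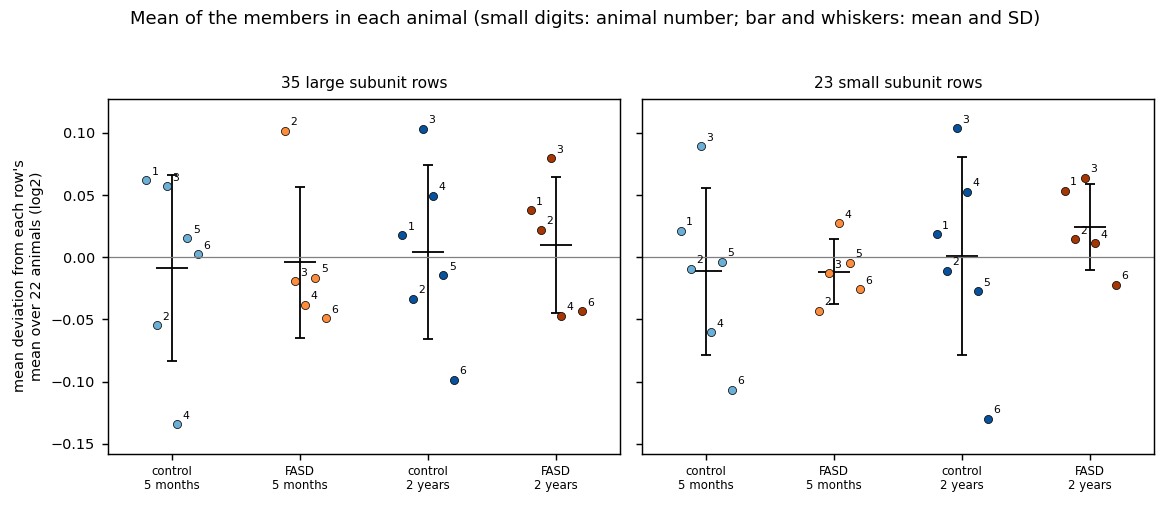
Mean deviation of the 35 large subunit rows (left) and 23 small subunit rows (right) from each row's mean over 22 animals, in log2 units, with animal numbers, group means and SD. The 4 groups overlap, control animals 3 and 6 at 2 years hold the extremes of their group in both panels, and FASD animal 2 at 5 months is high on the left only.

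Within a group, some animals were low or high across most members. Control animal 6 at 2 years lay below its own group's mean in 49 of 58 rows (84.5%), against 61.5% of all rows, and control animal 4 at 5 months in 42 (72.4%), against 56.7%. Control animal 3 at 2 years lay below in 10 of 58 (17.2%), against 43.1% of all rows, FASD animal 3 at 2 years in 10, against 41.5%, and control animal 3 at 5 months in 14 (24.1%), against 44.0%. The mean of the neuron markers of control animal 6 at 2 years was 0.33 below the mean of all animals, the lowest of the 22. Other markers stood apart in the same animal, with the mean of 4 immature neuron markers at -0.50 and that of 2 endothelium markers at -0.40, each the lowest of the 22, and that of 2 oligodendrocyte markers at 0.34. FASD animal 2 at 2 years was at -0.23 for the neuron markers with 25 of 58 members below its group's mean. The part of these cell type markers was not tested. With group means removed, the mean correlation between pairs of members over the 22 animals was 0.138 over 1653 pairs, 0.156 within the large and 0.102 within the small subunit. Over all pairs of rows it was 0.0195, among 35 rows of cytosolic ribosomal proteins 0.136 and among 53 rows of oxidative phosphorylation subunits 0.134. With arrays centred at equal medians these values were 0.130, 0.163, 0.073, 0.0070, 0.208 and 0.179 in the same order. The pairs share the same arrays, and the values are given as a description.

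**Figure D5:**
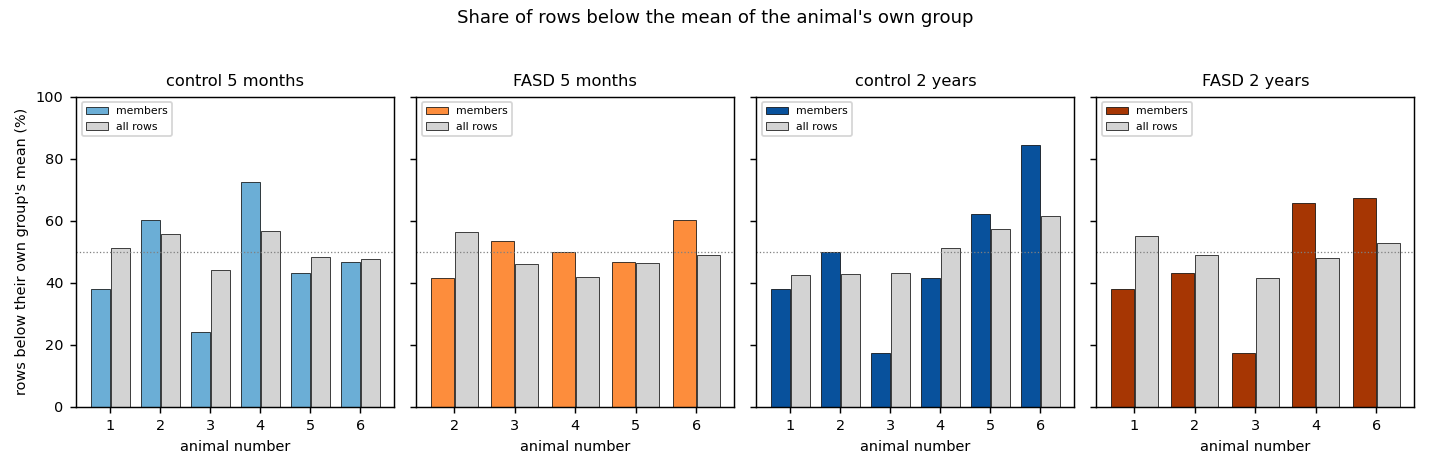
Percent of the 58 member rows (colored bars) and of all 11512 rows (grey bars) that lay below the mean of the animal's own group, for each animal by number in the 4 groups, with a dotted line at 50%. The member bars run from 17.2% in animal 3 of both 2-year groups to 84.5% in control animal 6 at 2 years, while the grey bars stay between 41.5% and 61.5%.

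Other genes of mitochondrial protein synthesis were grouped by role, and their calls use an unadjusted p under 0.05 with limma, which 8.44% of all rows reached for alcohol and 9.57% for age. Mitoribosomal proteins whose symbols do not start with MRP (AURKAIP1, CHCHD1, DAP3 and GADD45GIP1) had no call for alcohol or age in 4 rows. AURKAIP1, of the small subunit, had the lowest p, with -0.09 for alcohol (limma, adjusted p = 0.688) and -0.11 for age (adjusted p = 0.610). Mitoribosome assembly factors had 1 call in 20 rows for alcohol (5%, against 8.44% of all rows) and none for age. It was MALSU1, an assembly factor of the large subunit, lower in FASD by 0.13 on the log2 scale (difference -0.13, SE 0.06, limma, adjusted p = 0.580).

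Translation factors of mitochondria had 3 of 15 rows lower in FASD (20%, against 6.01% of all rows called lower) and none higher. GFM2, which recycles mitoribosomes after termination, had group means of 8.25 and 8.07 in controls and FASD animals at 5 months and 8.33 and 8.01 at 2 years. Its values ran from 8.06 to 8.498 in controls and from 7.57 to 8.31 in FASD animals, and the difference was -0.25 (SE 0.08, unadjusted limma p of 0.00429, adjusted p = 0.579). MTIF2, the initiation factor, differed by -0.13 (limma, adjusted p = 0.580), and GUF1, a GTPase of the elongation factor family, by -0.16 (adjusted p = 0.590). GUF1 was named after its value was seen. For age, 2 of the 15 rows were higher at 2 years (13.3%, against 4.68% of all rows called higher). These were MTFMT, which formylates the initiator methionyl tRNA, at 0.20 (SE 0.06, unadjusted limma p of 0.00339, adjusted p = 0.244), and TSFM, the exchange factor of elongation, at 0.12 (adjusted p = 0.434). MTFMT and GUF1 were dim rows, with group means of 5.31 to 5.62 and 6.01 to 6.29, below the lower quartile of all rows (6.76). None of these translation factors passed after adjustment over all rows.

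Aminoacyl-tRNA synthesis had 1 of 12 rows called for alcohol (8.33%, against 8.44% of all rows), WARS2, the tryptophan enzyme, higher by 0.12 (limma, adjusted p = 0.580), and none for age. In mitochondrial DNA expression and maintenance, TFAM, which packs mitochondrial DNA and starts its transcription, was the 1 of 15 rows called for alcohol (6.67%, against 8.44% of all rows). At 5 months its log2 mean was 8.38 for controls and 8.16 for the FASD group, and at 2 years 8.42 and 8.32, a difference of -0.16 (SE 0.06, limma, adjusted p = 0.579). MTERF1, a transcription termination factor, was the 1 row of 15 called for age (6.67%, against 9.57% of all rows), at -0.10 (limma, adjusted p = 0.461). It was a dim row too, with group means of 5.75 to 5.88. None of 7 rows of nuclear regulators was called. The lowest p among them for alcohol was that of PPARGC1A, a coactivator of mitochondrial biogenesis, at -0.10 (limma, adjusted p = 0.620).

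Cytosolic ribosomal proteins, which make up the other ribosome of the cell, had 3 of 35 rows called for alcohol (8.57%, against 8.44% of all rows), with RPS3 (-0.17) and RPL9 (-0.21) lower and RPL35A (0.15) higher, each at an adjusted limma p of 0.579. For age none was called, while 28 of 35 had a negative difference and the median was -0.05, against 23 of 58 and 0.0086 in the mitochondrial set. Over all rows 48.5% had a negative age difference, and the median was 0.0028. Oxidative phosphorylation subunits had 2 of 53 rows called for alcohol (3.77%, against 8.44% of all rows), UQCRB of complex III (-0.13) and NDUFS7 of complex I (-0.14), both lower in FASD at an adjusted limma p of 0.579. For age they had 4 of 53 (7.55%, against 9.57% of all rows), namely COX7A1 (-0.27) of complex IV, NDUFS6 (-0.15) of complex I and ATP5MC1 (-0.25) of ATP synthase lower and NDUFV2 (0.08) of complex I higher, at adjusted limma p between 0.290 and 0.481. RPL35A, ATP5MC1 and NDUFV2 were named after their values were seen. No difference between these lists and the mitochondrial ribosomal proteins was tested.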

How the data were processed

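The authors deposited log2 intensities, computed by RMA from Affymetrix GeneChip Rhesus Macaque Genome Arrays, whose probes were designed for another species. Per the methods, all arrays were loaded on the same day in random order, and probe sets were reduced to annotated ones detected in at least 6 arrays and to 1 per gene. Even so, 4 of the member symbols had 2 rows. Of 24 arrays, 2 that the authors discarded held no values. Symbols came from the platform annotation, with 1 symbol for 8730 of the 11512 rows, several for 88 and none for 2694. The groups came from the labels.

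Group means were fitted to all 11512 rows with limma 3.58.1 in R 4.3.3, without a further scaling or filter, with Benjamini-Hochberg adjustment over these rows. The steps were tested on simulated data. The number of arrays limits the precision. Single values were tested by 36 exact two-sided permutation tests, with Benjamini-Hochberg adjustment over the 36. Intervals are 95% intervals of the fit. Named members are, for alcohol and age, those at p under 0.05 or the 5 of lowest p, the 3 of lowest p in each other comparison, and every symbol with 2 rows. For the other lists up to 2 genes of lowest p were named. The members and lists were chosen with earlier results of these data known. Alternatives were the two-way analysis of variance of the methods, an intensity trend with robust variances, centring, quantile normalization, array weights, dropping the rows of low mean expression (the lowest 1 in 3), 1 row per symbol, a replicate block, and each array left out in turn. Figures used matplotlib 3.10.9 in Python 3.11.15.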

Additional observations from a re-analysis of the deposited data

Results flagged for a closer look

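In groups of 5 or 6 animals, a value was set apart where its gap to the nearest other animal was a large part of the range of the group, by Dixon's test. Of 88 such tests over the named members and the subunit means, 8 set a value apart, where chance gives about 1 in 20. Among controls at 5 months these were animal 1 on MRPL9 at 8.43, with the others between 8.18 and 8.27, animal 4 on MRPS28 at 8.69 (8.95 to 9.08), animal 4 on the brighter MRPL44 row at 7.02 (7.58 to 7.86) and animal 6 on the brighter MRPS26 row at 7.36 (9.27 to 10.11). Among controls at 2 years, animal 4 had 9.79 on the brighter MRPS14 row, with the others between 9.27 and 9.37. In FASD animals, animal 5 at 5 months had 9.47 on the brighter MRPS14 row (9.29 to 9.34), and animal 2 at 2 years had 8.11 on the brighter MRPS16 row (8.70 to 8.90). The mean of the large subunit rows was 0.102 in FASD animal 2 at 5 months, with the others between -0.049 and -0.016. No dimmer row of a symbol with 2 rows had a value set apart.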

How the results depend on the processing

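No single member changed direction in 739 alternative values of 25 named differences. Of these, 617 kept their side of an unadjusted p under 0.05, 60 lost it and 62 gained it, and no member reached an adjusted p under 0.05 in any alternative. The age difference of the dimmer MRPS26 row kept its call in all 29 alternatives that held the row, with p between 0.00114 and 0.00884. Counts of members at an unadjusted p under 0.05 were small and moved, and the calls over all rows moved with the setting as well. For alcohol the count of 2 became 5 with array weights (MRPS31, MRPS28, MRPL39, MRPL33 and MRPS2, without MRPS22), 1 without rows of low mean expression and 1 with the replicate block, and 1 to 7 with an animal left out, the 7 without control animal 2 at 2 years. For age the count of 1 became 4 with array weights, 0 with 1 row per symbol, which drops that MRPS26 row, and 2 with the replicate block (1 to 3 with an animal left out, the 3 without control animal 6 at 2 years). For the interaction the count of 0 became 2 with the analysis of variance, 1 after centring, 3 with array weights and 1 with the replicate block (0 to 3, the 3 without control animal 2 at 2 years or FASD animal 3 at 5 months). For alcohol at 5 months the count of 1 became 2 with the analysis of variance, centring or quantile normalization, 5 with array weights, 3 with the replicate block and 0 without rows of low mean expression or with 1 row per symbol, both of which drop the dimmer MRPL44 row (0 to 3, the 0 without FASD animal 6). For alcohol at 2 years the count of 2 became 1 without rows of low mean expression, which drops MRPS31 (0 to 6, the 0 without FASD animal 2 and the 6 without control animal 2). For age in controls the count of 2 became 1 with the analysis of variance, centring or 1 row per symbol (0 to 3, the 0 without control animal 3 or 4 at 5 months or 6 at 2 years). For age in FASD animals the count of 3 became 5 with the analysis of variance and 6 with array weights, and 2 after centring, quantile normalization or the replicate block, each without MRPL16, and with 1 row per symbol, which drops the dimmer MRPS26 row (1 to 4, the 1 without FASD animal 1 at 2 years or 5 at 5 months). For age in controls and in FASD animals the analysis of variance called 622 and 810 of all rows, against 639 and 805 with limma. Calls over all rows in the other settings of these comparisons and of alcohol at 2 years are not given here. Where no construction is named, the cause was not tested. The replicate numbers were not taken to pair the animals in the main fit. The correlation of deviations was over 0.1 in 13 of 30 pairs of equal number and in 38 of 151 pairs of different number. The mean correlations were 0.071 (-0.330 to 0.389) and -0.011 (-0.507 to 0.434). Animals of equal number were thus somewhat more alike on average, and the replicate block is the alternative that takes the numbers into account. The highest equal-number values were those of FASD animal 2 at 2 years with FASD animal 2 at 5 months (0.389) and with control animal 2 at 2 years (0.383). These animals had the lowest array weights, at 0.413, 0.273 and 0.379. The lowest was that of FASD animal 4 at 5 months with control animal 4 at 2 years (-0.330). Why animals of equal number were more alike on average was not tested. The median over the members stayed between 0.0075 and 0.041 for alcohol, between -0.0014 and 0.021 for age and between -0.015 and 0.044 for the interaction.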
